A study of Mus musculus with 12 samples.

Results

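The response of mouse hepatocytes to bexarotene with RXRα intact was read from 6 of the 12 libraries of the series, chosen by their group: 3 floxed libraries with bexarotene and 3 floxed control libraries. Bexarotene is a synthetic agonist of the retinoid X receptors. Both groups came from male C57bl/6 mice labelled flox, whose Rxra gene, which encodes RXRα, carries sites for recombination but was not deleted. The treated mice received bexarotene at 100 mg/kg per day, once daily for 5 days, and the controls did not. The remaining 6 libraries came from mice with a hepatic knockout of Rxra, with and without the same treatment, and they enter here through the shared estimate of spread and through the test of whether an effect differed between genotypes. The age of the mice, the vehicle given to controls, the Cre line of the knockout and the way the hepatocytes were obtained are not given in the sources used here. Libraries are numbered as in the table's columns, floxed bexarotene 1, 3 and 4 and floxed control 1, 3 and 4, and values per library are listed in that order throughout.

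RXRα is a nuclear receptor that binds DNA as a heterodimer with other nuclear receptors. In the liver its partners include PPARα, which drives fatty acid oxidation during fasting, LXR and FXR, which respond to oxysterols and bile acids, CAR and PXR, which respond to foreign chemicals, and the retinoic acid and thyroid hormone receptors. Some of these pairs are permissive, which means that a ligand of RXR alone can switch on the targets of the partner. Many such pairs recognise 2 copies of the hexamer AGGTCA, and the spacing between the copies helps to select the partner.

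Expression was given as TPM, a gene's share of a library's transcripts, corrected for transcript length and scaled to the same total in every library. Total reads cannot be read from TPM, so sequencing depth is unknown and no counting interval can be given. Between 9898 and 10470 genes reached 1 TPM in a treated floxed library, and between 10007 and 10419 in a floxed control. Floxed controls 1 and 3 were nearly identical, with an SD beyond counting noise of 0.0578 on the log2 scale, while the other pairs of floxed libraries within a group differed by 0.174 to 0.263. They were therefore averaged and counted as 1 sample, which left n = 3 treated and n = 2 control floxed samples. The 3 treated knockout libraries were as close to each other (0.0599 to 0.0864) and were likewise counted as 1. Whether each library is a separate animal is not stated in the labels, and p-values therefore reflect the spread among these samples alone, part of which may be technical.

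Rxra stood at 82.2, 85.3 and 79.6 TPM in treated floxed libraries, against 79.5, 79.9 and 86.1 TPM in floxed controls, which overlap, and at 27.8, 26.1 and 26.4 TPM in treated knockout libraries 1, 2 and 3 and 31.3, 33.1 and 26.9 TPM in knockout controls 1, 2 and 5. Its paralogs Rxrb (12.7, 13.2 and 13.02 TPM in treated floxed libraries, against 10.9, 11.9 and 9.91 TPM in floxed controls) and Rxrg (1.19, 1.37 and 1.55 TPM in treated floxed libraries, against 1.39, 1 and 1.83 TPM in floxed controls) were not called either, with log2 fold changes of 0.26 ± 0.20 and -0.08 ± 0.18. Hepatocyte markers, among them Alb, were abundant in every library. All 15 were tested, 6 with a positive and 9 with a negative fold change, and their mean level was 11.2 in every treated floxed library and 11.3 in every floxed control (mean log2(TPM + 1), exact two-sided permutation test, p = 0.1, the smallest that 3 against 3 libraries allow). The permutation tests of marker levels took floxed controls 1 and 3 as separate libraries although they are nearly identical, so their n exceeds the number of distinct samples. Markers of other liver cells were present at low levels. Neutrophil markers had a mean level of 0.489, 0.476 and 0.929 in treated floxed libraries, against 1.02, 0.958 and 1.79 in floxed controls (exact p = 0.1, 4 of 10 markers tested, 3 under 1 TPM in every floxed library). Macrophage markers had 1.37, 1.46 and 2.52 in treated floxed libraries, against 1.65, 1.77 and 2.86 in floxed controls (exact p = 0.5, 12 of 14 tested) and were highest in library 4 within each group. In bulk RNA, fewer cells of a type and less RNA per cell cannot be told apart.

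Some clock genes differed in level between the 2 floxed groups. Of 18 tested, 1 was called (5.56%, beside 2.12% of all tested genes). Dbp, a clock output gene that peaks in the late day, had 22.9, 25.5 and 45.0 TPM in treated floxed libraries, against 1.58, 1.40 and 1.15 TPM in floxed controls. Arntl, which encodes the clock activator BMAL1 and peaks in opposite phase, had 1.26, 1.68 and 0.8 TPM in treated floxed libraries, against 7.54, 8.32 and 10.5 TPM in floxed controls. Neither gene's libraries overlapped between the groups, but neither passed the test (limma adjusted p = 0.168 and 0.132). The labels do not give the hour of sampling, so that time of day and drug cannot be told apart in any change described below.

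The fit took the 11018 genes that reached 1 TPM in 3 or more libraries. Called, risen and fallen refer to an adjusted p under 0.05 in a limma fit of log2(TPM + 1) over all 4 groups, with p-values adjusted over all tested genes by the Benjamini-Hochberg method. By this test 234 genes differed between the treated and control floxed groups (2.12% of those tested), of which 203 rose (1.84%) and 31 fell (0.281%). At an unadjusted p under 0.05 there were 1692 genes. The largest changes were rises: 138 called genes rose by at least 1 on the log2 scale, 37 by at least 2, 13 by at least 3 and 4 by at least 4, while 19 fell by at least 1, 3 by at least 2 and 0 by at least 3. The median change of a called gene was 1.20 among those that rose and -1.12 among those that fell. Across all tested genes the median was 0.06, and the 5th and 95th percentiles were -0.58 and 0.70. A positive fold change was found in 58.6% of them, the share to set beside counts of positive members below.

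The called genes took a small part of the transcripts. The 203 that rose held 3.26%, 3.22% and 3.30% of the total TPM in treated floxed libraries, against 1.20%, 1.21% and 1.11% in floxed controls. The 31 that fell held 0.274%, 0.274% and 0.292% in treated floxed libraries, against 0.455%, 0.471% and 0.455% in floxed controls. The 20 most abundant genes of a library held 36.6% to 39.4% of its TPM in treated floxed libraries, against 41.1% to 42.2% in floxed controls. Called genes were more frequent at high than at low expression, at 0.856% of 2337 genes under 2 TPM and 5.30% of 509 genes over 200 TPM, and the median standard error was 0.24 and 0.16 in these classes. Of the tested protein-coding genes, 9663 in all, 214 were called, and of 466 noncoding genes 5 rose and 1 fell.

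**Figure D1:**
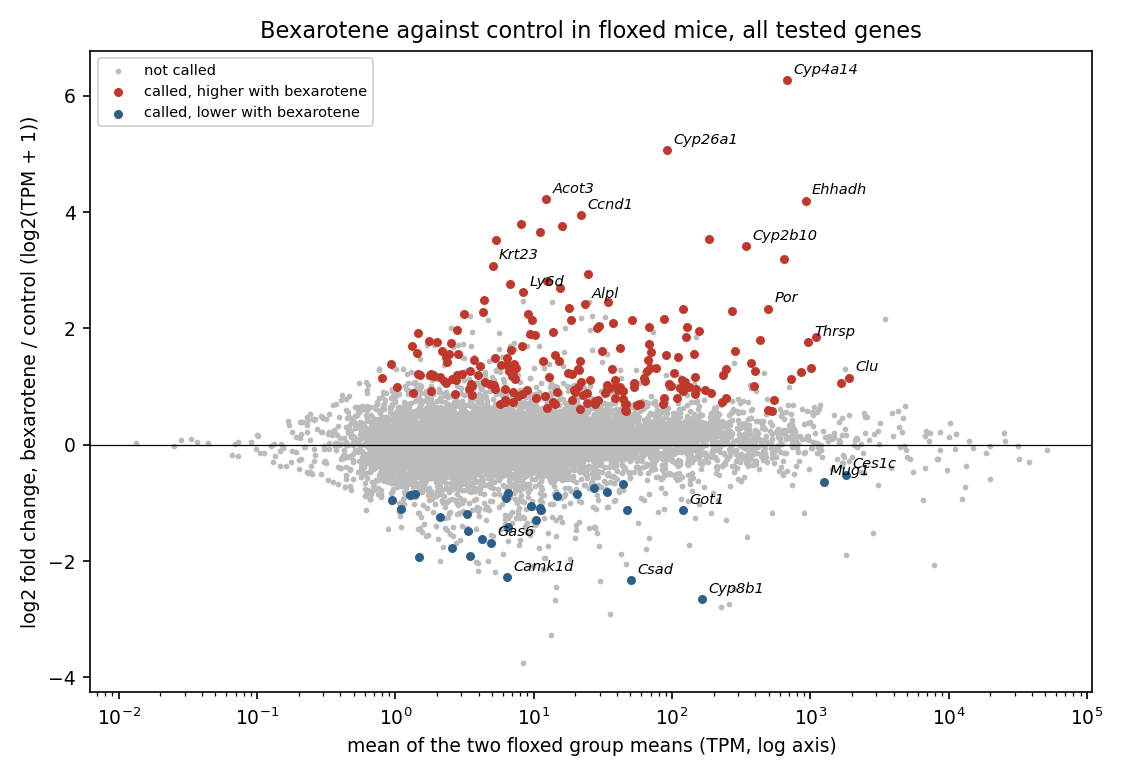
Each point is a tested gene, with the mean of the 2 floxed group means in TPM on a log axis and the log2 fold change of bexarotene over control in floxed mice on the other, red where called higher, blue where called lower and grey where not called. The 203 red points reach a change of 6.27 (Cyp4a14), while no blue point lies below -2.65 (Cyp8b1).

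All 234 called genes had 3 treated floxed libraries on one side of the 3 floxed controls. That alone is a weak criterion here, since it also held for 25.7% of all tested genes in the upward direction and 9.59% in the downward direction. Where separate groups are mentioned for called genes below, this describes their values and adds no support to their calls. Leaving out 1 sample at a time, which gave 8 fits, 35 of the 234 kept their call in every fit, 34 that rose and 1 that fell. Most other calls were lost when floxed control 4, or floxed controls 1 and 3, were left out, which leaves a lone control sample assumed to vary like the other groups (43 and 65 genes called). Among the 35 were Cyp4a14, Cyp26a1, Acot3, Ehhadh, Ccnd1, Akr1b7, Acot2, Maats1os, Krt23, Cyp4a31, Slc16a5, Cidec, Pla2g6, Alpl, Slc22a5, Por, Gsta2, Aass, Gpat3, Obp2a, Sulf2, Fam47e, Mfsd2a, Cyp4a12b, Gstt3, Tmem141, Acsl1, Thrsp, Slc51b, Abcg8, Gch1, Suox, Gpd2 and, falling, Csad.

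The largest rises were led by enzymes of fatty acid and retinoid breakdown. Cyp4a14, which hydroxylates the far end of fatty acids, had 1153, 1117 and 1763 TPM in treated floxed libraries, against 29.0, 28.4 and 8.78 TPM in floxed controls. Cyp26a1, which degrades retinoic acid, had 155, 159 and 224 TPM in treated floxed libraries, against 6.29, 6.51 and 2.80 TPM in floxed controls. Ehhadh, the bifunctional enzyme of peroxisomal β-oxidation, had 1837, 1652 and 1772 TPM in treated floxed libraries, against 98.9, 101 and 89.6 TPM in floxed controls. In each of the 3 genes the lowest treated library stood far above the highest control, and log2 fold changes were 6.27 ± 0.48, 5.06 ± 0.42 and 4.20 ± 0.11 (± SE, limma adjusted p = 0.000568, 0.000831 and 2.1e-06). The spread differed among them: Cyp4a14 and Cyp26a1 were highest in treated library 4 and lowest in control 4, whereas Ehhadh varied little within either group.

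The acyl-CoA thioesterases, which release free fatty acids from coenzyme A, rose as a cluster of neighbouring genes. Acot3 had 20.4, 23.1 and 29.7 TPM in treated floxed libraries, against 0.26, 0.6 and 0.27 TPM in floxed controls (4.22 ± 0.30, limma adjusted p = 0.000366). Acot2, the mitochondrial member, had 23.8, 19.4 and 21.1 TPM in treated floxed libraries, against 1.14, 0.76 and 0.62 TPM in floxed controls (3.65 ± 0.19, 8.67e-05). Acot1 had 368, 359 and 293 TPM in treated floxed libraries, against 30.3, 30.8 and 26.0 TPM in floxed controls (3.54 ± 0.55, 0.0182), and it was the most abundant of the 3. These genes are closely related copies, so that the split of reads among them is uncertain, as it is among the Cyp4a genes. Cyp4a10 had 1016, 1063 and 1405 TPM in treated floxed libraries, against 195, 202 and 78.2 TPM in floxed controls (3.19 ± 0.42, 0.00979), and Cyp4a31 had 37.7, 46.9 and 46.6 TPM in treated floxed libraries, against 8.64, 7.10 and 2.81 TPM in floxed controls (2.94 ± 0.33, 0.00491). The call of Acot1 was lost in 4 of the 8 fits, those without either control sample, treated library 1 or treated library 3 (adjusted p up to 0.17), and that of Cyp4a10 without floxed control 4 (0.0723).

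Ccnd1, which encodes cyclin D1, the cyclin of early G1, had 42.5, 43.7 and 41.3 TPM in treated floxed libraries, against 1.62, 1.24 and 2.26 TPM in floxed controls (3.95 ± 0.18, limma adjusted p = 4.67e-05). Its 3 treated libraries were nearly equal. Akr1b7, an aldo-keto reductase that detoxifies lipid aldehydes, had 15.5, 15.94 and 16.3 TPM in treated floxed libraries, against 0.11, 0.56 and 0.12 TPM in floxed controls (3.79 ± 0.17, 4.67e-05). Cyp2b10, the classic drug-inducible P450 of the mouse liver, had 701, 687 and 489.7 TPM in treated floxed libraries, against 61.1, 61.2 and 53.02 TPM in floxed controls (3.42 ± 0.43, 0.00718). Krt23, a keratin, had 8.86, 7.89 and 12.9 TPM in treated floxed libraries, against 0.21, 0.29 and 0.28 TPM in floxed controls (3.08 ± 0.23, 0.000523), and the cholangiocyte markers, of the other keratin-bearing epithelium of the liver, had mean levels of 3.52, 3.39 and 3.12 in treated floxed libraries, against 2.66, 2.83 and 3.22 in floxed controls over the 2 tested of 11 members (exact permutation p = 0.2), while 9 were under 1 TPM in every floxed library. The part of these cells in the Krt23 values was not tested. Slc16a5, of the monocarboxylate transporter family, had 22.6, 25.7 and 19.5 TPM in treated floxed libraries, against 1.83, 2.09 and 2.74 TPM in floxed controls (2.82 ± 0.19, 0.000332). Id1, an inhibitor of helix-loop-helix factors and a target of BMP signalling, had 12.7, 10.1 and 14.8 TPM in treated floxed libraries, against 2.06, 1.02 and 0.55 TPM in floxed controls (2.76 ± 0.39, 0.0121). The calls of Cyp2b10 and Id1 were lost without either control sample, and that of Id1 also without treated library 1 (adjusted p up to 0.0905 and 0.135).

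**Figure D2:**
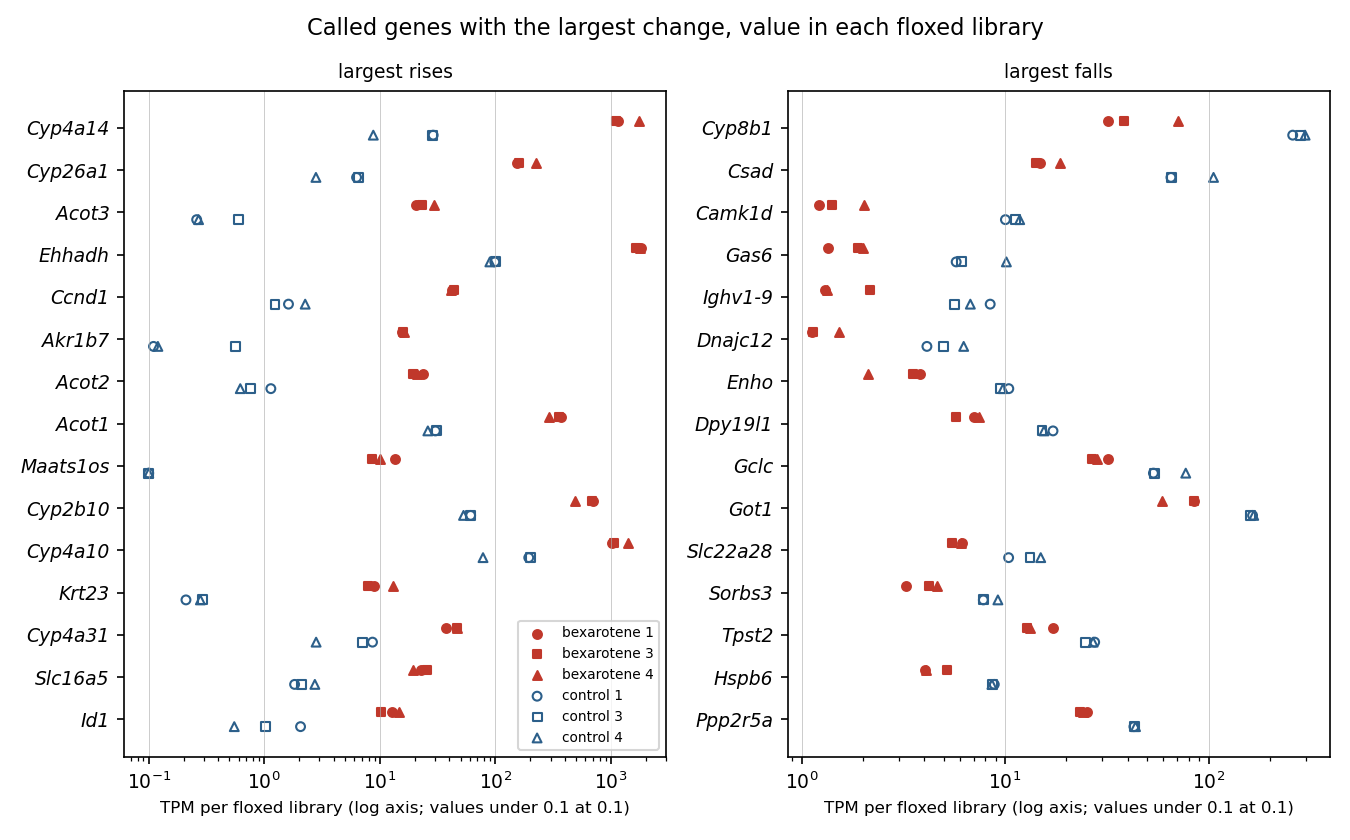
TPM on a log axis in each floxed library, filled red for bexarotene and open blue for control, of the 15 genes with the largest rise and the 15 with the largest fall by the naming rule. Values under 0.1 are drawn at 0.1, which holds for Maats1os in the 3 controls. Treated and control libraries are separate in every row, as the naming rule required. Values run from 1117 to 1763 against 8.78 to 29.0 TPM for Cyp4a14 to 23.4 to 25.2 against 43.0 to 43.8 TPM for Ppp2r5a.

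Among called genes ranked by added transcripts rather than by fold, Ehhadh gained the most, Clu came next and Cyp4a14 followed. Clu encodes clusterin, a secreted chaperone, and had 2613, 2791 and 2454 TPM in treated floxed libraries, against 1141, 1167 and 1197 TPM in floxed controls (1.15 ± 0.18, limma adjusted p = 0.0182). Uox, the peroxisomal urate oxidase, had 2436, 2176 and 2190.1 TPM in treated floxed libraries, against 1203, 1071 and 1039 TPM in floxed controls (1.06 ± 0.17, 0.0199). Acaa1b, a peroxisomal thiolase, had 1674, 1736 and 1754 TPM in treated floxed libraries, against 532, 564 and 409.6 TPM in floxed controls (1.86 ± 0.29, 0.0191). Slc27a2, a very-long-chain acyl-CoA synthetase of peroxisomes and the endoplasmic reticulum, had 1224, 1079 and 1306 TPM in treated floxed libraries, against 569, 582 and 439.6 TPM in floxed controls (1.25 ± 0.15, 0.00595). Groups were separate in all of these genes, and Ehhadh, Uox, Acaa1b and Slc27a2 encode enzymes found in peroxisomes. Thrsp, a promoter of lipogenesis, held to a range of 1463 to 1508 TPM in treated floxed libraries and of 433 to 442 TPM in floxed controls (1.76 ± 0.11, 0.000307). Calls were lost in 4 fits for Clu and Uox (without either control sample, treated library 1 or treated library 3), in 5 for Acaa1b (also without treated library 4) and in 1 for Slc27a2 (without floxed control 4), with adjusted p up to 0.155, 0.212, 0.211 and 0.0715.

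Known targets were called at a higher rate than other genes, while most called genes were on no target list. The lists were chosen with earlier results of these data known, so these rates are descriptions and not a test. On the 10 lists of receptor targets and related genes 51 of 203 tested genes were called (25.1%, 49 higher, 2 lower), beside 2.12% of all tested genes. On any of the 59 gene lists used 100 of 1599 were called (6.25%), and on none of them 134 of 9419 (1.42%, 113 higher, 21 lower), a share below that of all tested genes. Genes with no name or only a predicted one made up 21 of the calls, 15 higher and 6 lower.

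Among the named rises on no list, Maats1os, a transcript on the strand opposite Maats1, was listed at 13.5, 8.56 and 10.1 TPM in treated floxed libraries and at 0 in all 3 floxed controls. No source states the strand setting of the counting, so that reads of overlapping genes on the 2 strands cannot be told apart for it. Alpl, the tissue-nonspecific alkaline phosphatase, had 39.0, 40.8 and 41.7 TPM in treated floxed libraries, against 7.43, 5.79 and 6.93 TPM in floxed controls (2.42 ± 0.20, limma adjusted p = 0.000831). Obp2a, a lipocalin, had 5.94, 7.09 and 4.56 TPM in treated floxed libraries, against 0.62, 0.63 and 0.26 TPM in floxed controls (2.25 ± 0.22, 0.00209). Sulf2, which trims sulphate groups from heparan sulphate at the cell surface, had 15.4, 16.2 and 18.3 TPM in treated floxed libraries, against 3.16, 2.96 and 2.91 TPM in floxed controls (2.14 ± 0.17, 0.000758). Mfsd2a, the transporter of lysophosphatidylcholine that carries docosahexaenoic acid, had 58.5, 55.3 and 69.4 TPM in treated floxed libraries, against 14.6, 12.6 and 13.4 TPM in floxed controls (2.09 ± 0.17, 0.000762). The lowest treated library exceeded the highest control more than 3-fold in Alpl, Sulf2 and Mfsd2a, and the calls of all 5 genes were kept in each of the 8 fits.

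Tmem141, which encodes a transmembrane protein, had 39.5, 45.4 and 55.9 TPM in treated floxed libraries, against 11.1, 9.93 and 11.1 TPM in floxed controls (2.01 ± 0.17, limma adjusted p = 0.000831) and kept its call in every fit. Ly6d, a lipid-anchored surface protein, had 11.8, 9.93 and 23.9 TPM in treated floxed libraries, against 0.49, 0.95 and 2.50 TPM in floxed controls (2.63 ± 0.41, 0.0182). Fgfr2, a receptor for fibroblast growth factors, had 15.5, 13.1 and 21.6 TPM in treated floxed libraries, against 2.97, 3.26 and 4.38 TPM in floxed controls (1.89 ± 0.27, 0.0121). Library 4 was the highest of its group in Ly6d and Fgfr2, treated and control alike. Txnip, which binds thioredoxin and restrains glucose uptake, had 110.1, 94.5 and 234 TPM in treated floxed libraries, against 18.8, 26.7 and 37.9 TPM in floxed controls (2.16 ± 0.38, 0.0292), again with library 4 highest in both groups. Nmrk1, the nicotinamide riboside kinase of NAD synthesis, had 24.1, 21.2 and 22.3 TPM in treated floxed libraries, against 4.76, 5.65 and 5.02 TPM in floxed controls (1.94 ± 0.34, 0.0283). Plscr1, a phospholipid scramblase, had 16.4, 13.03 and 17.1 TPM in treated floxed libraries, against 2.71, 2.84 and 4.07 TPM in floxed controls (1.91 ± 0.23, 0.00602). St3gal5, the synthase of ganglioside GM3, had 496, 473 and 302 TPM in treated floxed libraries, against 198, 182 and 96.6 TPM in floxed controls (1.60 ± 0.30, 0.0376), and Ifi27l2b had 13.2, 12 and 7.56 TPM in treated floxed libraries, against 2.40, 2.68 and 3.01 TPM in floxed controls (1.63 ± 0.31, 0.0377). No library of one group overlapped the other in these genes. Their calls were lost in 1 fit for Plscr1 (without floxed controls 1 and 3), 3 for Ly6d and Fgfr2 (without either control sample or treated library 1), 4 for Txnip and St3gal5 and 5 for Nmrk1 and Ifi27l2b, each of these 4 with floxed control 4 among the samples left out, and adjusted p reached 0.0667, 0.141, 0.117, 0.223, 0.27, 0.236 and 0.237.

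**Figure D3:**
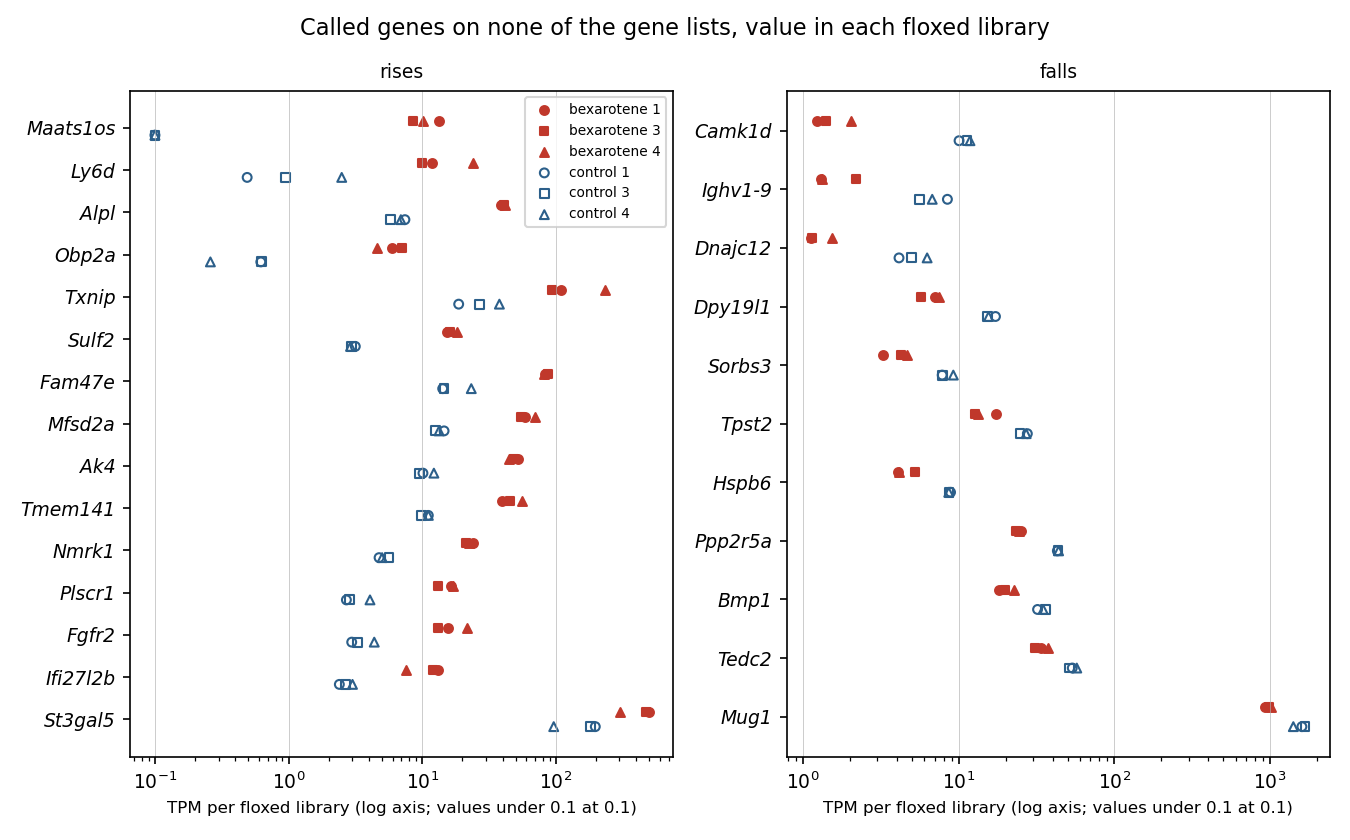
TPM on a log axis in each floxed library, filled red for bexarotene and open blue for control, of called genes on none of the 59 lists: 15 rises and 11 falls. Values under 0.1 are drawn at 0.1. Alpl, Sulf2 and Mfsd2a show tight groups, while Ly6d and Txnip spread widely within each group.

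Ak4 and Fam47e are shown with their promoters, as the 2 of 29 candidate rises whose start-site window holds a near match to the direct repeat that PPARα and RXRα bind. The 29 joined the 15 largest named rises with the 15 largest on no list. Some larger rises on a list were therefore outside them, among them Acot4 (2.69) and Aass (2.31), which also held a match. Of the 29, 20 had a promoter entry, and called genes outside the 29 with a match are named below. Ak4, a mitochondrial adenylate kinase, had 52.1, 49.0 and 44.7 TPM in treated floxed libraries, against 10.1, 9.51 and 12.2 TPM in floxed controls (2.05 ± 0.27, limma adjusted p = 0.00975, lost without either control sample, up to 0.0981). Fam47e had 82.7, 88.2 and 82.0 TPM in treated floxed libraries, against 14.3, 14.6 and 23.3 TPM in floxed controls (2.14 ± 0.19, 0.00134, kept in every fit). The 250 bases upstream of each RefSeq start site follow, from GRCm38.p6, plus strand, at chr4:101419453-101419702 and chr5:92571287-92571536. Capitals mark the match on the strand shown, which is the reverse complement of the motif.
Ak4: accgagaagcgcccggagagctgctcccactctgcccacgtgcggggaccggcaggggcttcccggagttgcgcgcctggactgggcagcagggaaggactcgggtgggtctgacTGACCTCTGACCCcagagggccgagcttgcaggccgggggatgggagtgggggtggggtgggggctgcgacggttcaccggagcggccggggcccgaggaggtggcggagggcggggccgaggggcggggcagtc
Fam47e: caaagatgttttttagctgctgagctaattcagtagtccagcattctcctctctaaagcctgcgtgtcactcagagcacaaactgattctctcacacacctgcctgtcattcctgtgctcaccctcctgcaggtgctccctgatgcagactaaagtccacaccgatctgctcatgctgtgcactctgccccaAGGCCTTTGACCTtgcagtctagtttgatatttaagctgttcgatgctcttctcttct

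The motif searched was 2 copies of AGGTCA with any 1 base between them (DR1), on both strands, with up to 2 mismatches, in windows of 250 bases before to 50 bases after the start site. Ak4 held it with 1 mismatch, 122 bases upstream of the start, and Fam47e with 2, 45 bases upstream. Of 152 called genes that rose and had a promoter entry, 10 held a match (6.58%), against 4.11% of the promoters of all tested genes (328 of 7973), and 0 of 16 that fell did. With at most 1 mismatch the shares were 1.32% (2 genes, Ak4 and Apoc2) and 0.665% (53 genes). The other 8 with 2 mismatches were Acot4, Aass, Fam47e, Aadat, Rab43, Myo1c, Slc25a20 and Creb3l3. A match describes the letters of this window only, and distal sites were not searched.

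Several rises were neighbours on a chromosome. Of the called genes, 30 formed 11 runs of adjacent tested genes, and in all 11 every member rose. The longest runs, of 5 genes each, were Acot2, Acot1, Acot4, Acot3 and Acot5 on chromosome 12 and Cyp4a12b, Cyp4a14, Cyp4a10, Cyp4a31 and Cyp4a32 on chromosome 4. Gstt3, Gstt1 and Gstt2, glutathione transferases, formed a run on chromosome 10, and Rhbdd2, Por and Tmem120a on chromosome 5. Por, the electron donor of microsomal P450s, had 783, 886 and 802 TPM in treated floxed libraries, against 188, 201 and 134 TPM in floxed controls (2.34 ± 0.24, limma adjusted p = 0.00277), and its neighbour Tmem120a had 53.1, 59.3 and 46.9 TPM in treated floxed libraries, against 21.5, 20.3 and 21.1 TPM in floxed controls (1.29 ± 0.15, 0.00533). Maats1os lay next to Nr1i2, which encodes PXR and had 56.1, 56.8 and 56.9 TPM in treated floxed libraries, against 34.8, 34.5 and 34.0 TPM in floxed controls (0.71 ± 0.11, 0.0165, lost without either control sample or any 1 treated library, up to 0.172). Other runs of 2 included Usp22 and Aldh3a2, Shpk and Aspa, Abcg5 and Abcg8, Tor1b and Tor1a, and Slc16a5 with the predicted gene Gm11695. The split of reads among related genes may be uncertain within the Acot, Cyp4a and Gstt runs, and how alike their sequences are was not measured.

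Fewer genes fell. Their median change was near that of the rises in size, but no fall was as large as the largest rises. Cyp8b1, the sterol 12α-hydroxylase that sets the share of cholic acid among bile acids, had 32.0, 38.5 and 70.8 TPM in treated floxed libraries, against 259, 283 and 298 TPM in floxed controls (-2.65 ± 0.30, limma adjusted p = 0.00491). Csad, which makes the precursor of taurine, had 14.8, 14.2 and 18.6 TPM in treated floxed libraries, against 65.3, 65.6 and 106 TPM in floxed controls (-2.33 ± 0.22, 0.00149). Gclc, the rate-limiting enzyme of glutathione synthesis, had 31.9, 26.6 and 28.5 TPM in treated floxed libraries, against 53.6, 54.1 and 77.2 TPM in floxed controls (-1.13 ± 0.19, 0.0265). Got1, the cytosolic aspartate aminotransferase, had 84.9, 84.9 and 59.0 TPM in treated floxed libraries, against 165, 161 and 167 TPM in floxed controls (-1.12 ± 0.19, 0.0277). Treated libraries lay below controls in all 4. Csad kept its call in all 8 fits, while Cyp8b1 lost it without floxed control 4 (0.068), Gclc without either control sample or any 1 treated library (up to 0.259) and Got1 without either control sample, treated library 1 or treated library 3 (up to 0.236).

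Secreted factors and signalling proteins were among the other falls. Gas6, a ligand of the TAM receptor kinases, had 1.35, 1.90 and 2.01 TPM in treated floxed libraries, against 5.75, 6.09 and 10.2 TPM in floxed controls (-1.68 ± 0.23, limma adjusted p = 0.0117). Enho, which encodes the secreted peptide adropin, had 3.84, 3.53 and 2.13 TPM in treated floxed libraries, against 10.4, 9.53 and 9.77 TPM in floxed controls (-1.41 ± 0.28, 0.0473). Camk1d, a calcium-dependent kinase, had 1.22, 1.41 and 2.02 TPM in treated floxed libraries, against 10.04, 11.3 and 11.8 TPM in floxed controls (-2.27 ± 0.41, 0.0321). In all 3 the highest treated library stood below the lowest control. Dnajc12, a co-chaperone of the aromatic amino acid hydroxylases, had 1.13, 1.14 and 1.53 TPM in treated floxed libraries, against 4.13, 4.96 and 6.26 TPM in floxed controls (-1.49 ± 0.29, 0.0432). Dpy19l1, of a family of C-mannosyltransferases, had 7, 5.73 and 7.48 TPM in treated floxed libraries, against 17.2, 15.2 and 15.5 TPM in floxed controls (-1.13 ± 0.20, 0.0308). Ppp2r5a, a regulatory subunit of protein phosphatase 2A, had 25.2, 23.4 and 24.2 TPM in treated floxed libraries, against 43.0, 43.4 and 43.8 TPM in floxed controls (-0.82 ± 0.12, 0.0153), with little spread within either group. Each of these 6 calls was lost without floxed control 4 and without treated library 1, and in 2 to 6 of the 8 fits in all (adjusted p up to 0.106 for Gas6, 0.315 for Enho, 0.27 for Camk1d, 0.36 for Dnajc12, 0.232 for Dpy19l1 and 0.157 for Ppp2r5a).

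Among called genes, the largest falls by lost transcripts were of Ces1c and Mug1, which encode plasma proteins. Ces1c, a carboxylesterase of mouse plasma, had 1489.7, 1447 and 1563 TPM in treated floxed libraries, against 2090.2, 2153 and 2159 TPM in floxed controls (-0.51 ± 0.10, limma adjusted p = 0.0473). Mug1, a protease inhibitor related to α2-macroglobulin, had 928, 988 and 1019 TPM in treated floxed libraries, against 1599.5, 1676 and 1409 TPM in floxed controls (-0.64 ± 0.12, 0.0412). Other falls were those of Sorbs3 (-0.92), Tpst2 (-0.85), Hspb6 (-0.84), Bmp1 (-0.75), Tedc2 (-0.67) and Slc22a28 (-1.06). These 8 calls were each lost in 5 or 6 of the 8 fits, always including those without either control sample (adjusted p up to 0.387). The immunoglobulin segment Ighv1-9 also fell, at 1.31, 2.18 and 1.33 TPM in treated floxed libraries, against 8.45, 5.62 and 6.75 TPM in floxed controls (-1.61 ± 0.21, 0.00875, lost without either control sample, up to 0.0923), and Igkv12-98, named after its values were seen, was listed at 0 in all 3 treated floxed libraries and at 2.96, 0.85 and 4.05 TPM in floxed controls. Lymphocyte markers had mean levels of 0.754, 0.766 and 1.36 in treated floxed libraries, against 1.00, 1.19 and 1.48 in floxed controls (exact permutation test, p = 0.3, 7 of 16 tested, 6 of the 7 with a negative fold change). The part of these cells in the immunoglobulin values was not tested. Igkv12-98 lost its call when any 1 treated library was left out. It also lost it with 12 separate libraries, with a pseudocount of 0.1 and with no filter on low values.

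Lists of known targets are given for scale, beside the 2.12% called and the median of 0.06 over all tested genes. PPARα targets had 24 of 47 tested members called, all higher, with a median log2 fold change of 1.07. CAR and PXR targets had 7 of 37 higher (median 0.40), LXR targets 4 higher and 1 lower of 11 (0.54), FXR targets 3 higher and 1 lower of 12 (0.49) and lipogenesis genes 6 higher of 25 (0.54). Retinoid genes had 3 of 17 higher with a median of -0.11, and thyroid hormone responsive genes 2 of 8 with a median of 0.01. These counts depended on the processing: over the alternatives called members ran from 9 to 36 for PPARα, 4 to 18 for CAR and PXR, 1 to 8 for LXR and 1 to 9 for FXR targets, 1 to 15 for lipogenesis, 1 to 5 for retinoid and 2 to 4 for thyroid hormone responsive genes. Of 30 cell cycle genes only Ccnd1 was called (1 to 8 over the alternatives), while 27 had a positive fold change (median 0.53). The mitotic kinase gene Cdk1, uncalled, had 7.65, 7.63 and 4.69 TPM in treated floxed libraries, against 1.65, 1.97 and 2.57 TPM in floxed controls (1.25 ± 0.27, limma adjusted p = 0.0636), and Cdkn1a, which encodes the cell cycle inhibitor p21, also uncalled, had 27.1, 26.6 and 6.38 TPM in treated floxed libraries, against 74.0, 73.5 and 72.6 TPM in floxed controls (-2.05 ± 1.25, 0.496).

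**Figure D4:**
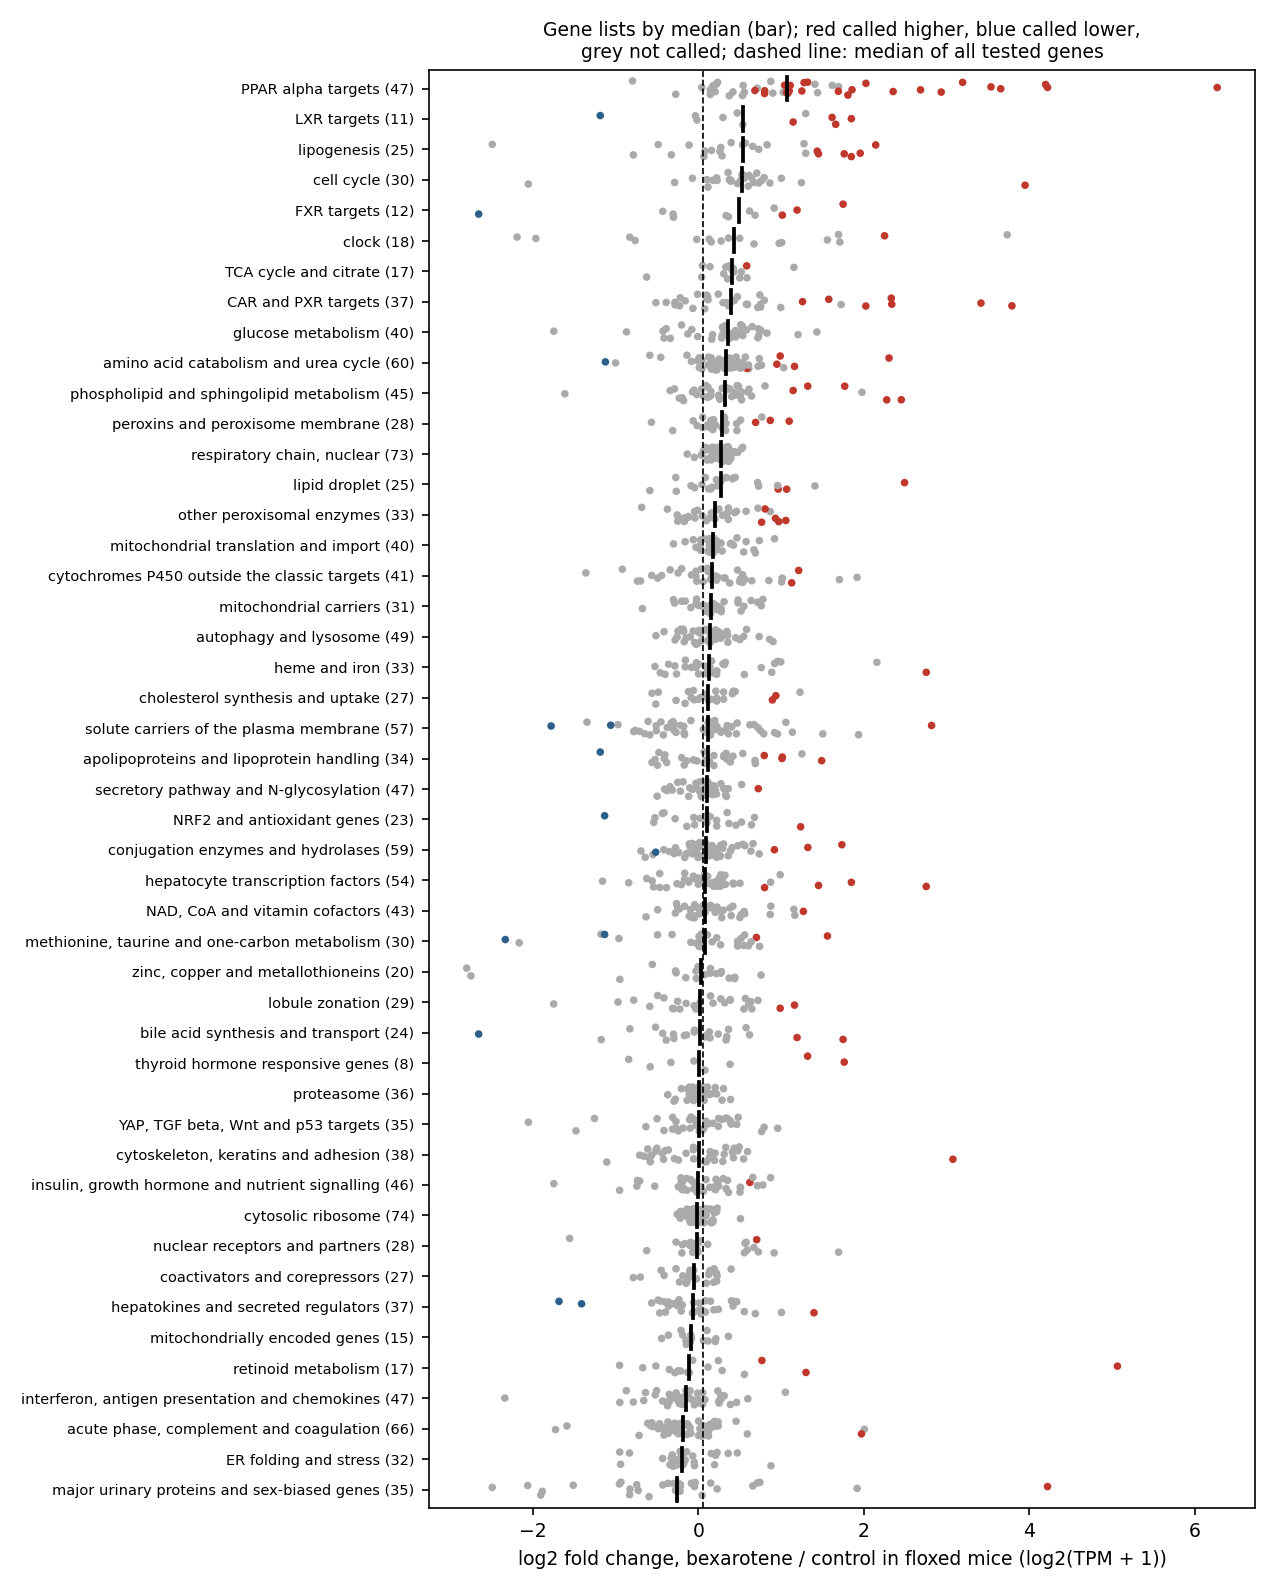
Log2 fold change of bexarotene over control in floxed mice for each tested member of the gene lists other than cell markers and the RXR genes, red where called higher, blue where called lower and grey where not called, with a black bar at the list's median and a dashed line at the median of all tested genes. Respiratory chain genes form a narrow column right of the dashed line with no red point, while PPARα targets are the list with its median farthest to the right.

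The called members of these lists had separate groups in every case, as all 234 called genes did. Among PPARα targets, Slc22a5, the carnitine transporter, had 32.8, 31.1 and 27.9 TPM in treated floxed libraries, against 5.94, 6.17 and 4.38 TPM in floxed controls, and Acsl1, a long-chain acyl-CoA synthetase, had 678, 646 and 695 TPM in treated floxed libraries, against 198, 203 and 182 TPM in floxed controls. Both varied little within a group. Among CAR and PXR targets, Gsta2, a glutathione transferase, had 207, 194 and 206 TPM in treated floxed libraries, against 40.1, 40.9 and 38.1 TPM in floxed controls, and its relative Gstt3 had 104, 104 and 124 TPM in treated floxed libraries, against 25.8, 28.0 and 25.7 TPM in floxed controls. Among LXR targets, Abcg5 and Abcg8, which together form the sterol exporter of the bile canaliculus, had 62.3, 62.6 and 68.5 TPM in treated floxed libraries, against 22.0, 22.4 and 17.4 TPM in floxed controls for Abcg5 and 45.7, 47.1 and 51.0 TPM in treated floxed libraries, against 15.6, 16.4 and 14.0 TPM in floxed controls for Abcg8. Lpl, lipoprotein lipase, was the LXR target that fell, at 1.46, 1.30 and 2.18 TPM in treated floxed libraries, against 4.96, 4.16 and 5.37 TPM in floxed controls. Log2 fold changes were 2.36 ± 0.16, 1.81 ± 0.12, 2.33 ± 0.12, 2.03 ± 0.19, 1.66 ± 0.18, 1.62 ± 0.14 and -1.18 ± 0.19 in this order (limma adjusted p = 0.000332, 0.00034, 8.62e-05, 0.00184, 0.00351, 0.000995 and 0.0208). Abcg5 lost its call without floxed control 4 (0.0545) and Lpl without either control sample, treated library 1 or treated library 3 (up to 0.225), while the other 5 kept theirs in every fit.

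Called members of the bile acid, retinoid and lipogenesis lists also had separate groups, as all 234 called genes did. That does not hold for those lists as a whole. Of 24 tested genes of bile acid synthesis and transport 2 rose and 1 fell (12.5% called, beside 2.12% of all tested genes). Of the 24, 12 had a positive and 12 a negative fold change (median 0.02), and of 17 retinoid genes 10 had a negative one. Slc51b, a subunit of the basolateral bile acid exporter, had 4.26, 4.38 and 4.64 TPM in treated floxed libraries, against 0.81, 0.23 and 0.71 TPM in floxed controls, and Abcb11, the bile salt export pump, had 305, 288 and 392 TPM in treated floxed libraries, against 120.4, 125 and 163 TPM in floxed controls. Retsat, which saturates retinol, had 311, 338 and 405 TPM in treated floxed libraries, against 132, 139 and 147 TPM in floxed controls, and Rdh5, a retinol dehydrogenase, had 24.1, 24.9 and 23.2 TPM in treated floxed libraries, against 11.6, 12.9 and 15.3 TPM in floxed controls. Srebf1, which encodes SREBP1, the transcription factor that drives lipogenesis, had 177, 179 and 240.2 TPM in treated floxed libraries, against 46.0, 47.1 and 62.3 TPM in floxed controls, with library 4 the highest of each group. Mlxipl, which encodes the glucose-responsive factor ChREBP, had 97.7, 78.8 and 121 TPM in treated floxed libraries, against 26.7, 32.3 and 41.5 TPM in floxed controls, again with library 4 the highest of each group. Acaca, acetyl-CoA carboxylase, had 28.0, 32.1 and 34.7 TPM in treated floxed libraries, against 7.96, 8.20 and 14.8 TPM in floxed controls, and Gpd2, the mitochondrial glycerol phosphate dehydrogenase, had 10.8, 10.5 and 11.9 TPM in treated floxed libraries, against 3.75, 3.62 and 3.96 TPM in floxed controls. Log2 fold changes in this order were 1.75 ± 0.16, 1.19 ± 0.22, 1.30 ± 0.22, 0.77 ± 0.15, 1.85 ± 0.31, 1.45 ± 0.22, 1.44 ± 0.22 and 1.32 ± 0.13 (limma adjusted p = 0.00124, 0.033, 0.0265, 0.0463, 0.0241, 0.0163, 0.0182 and 0.00228). Slc51b and Gpd2 kept their calls in every fit. The others lost them in 3 to 6 fits, always including those without floxed controls 1 and 3 and without treated library 1 (adjusted p up to 0.245 for Abcb11, 0.198 for Retsat, 0.314 for Rdh5, 0.197 for Srebf1, 0.136 for Mlxipl and 0.082 for Acaca).

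Genes of lipid handling beyond those targets also rose. Of 45 tested genes of phospholipid and sphingolipid metabolism 5 rose (11.1%, beside 1.84% of all tested genes) and 0 fell (median 0.33). Pla2g6, a calcium-independent phospholipase A2, had 52.0, 62.6 and 61.4 TPM in treated floxed libraries, against 9.69, 10.95 and 9.42 TPM in floxed controls (2.45 ± 0.20, limma adjusted p = 0.00079). Gpat3, which starts glycerolipid synthesis, had 8.14, 8.01 and 7.41 TPM in treated floxed libraries, against 0.89, 0.87 and 0.77 TPM in floxed controls (2.28 ± 0.15, 0.000325). Both kept their calls in every fit and had groups well apart. Gpat4, its paralog, had 112, 119 and 97.7 TPM in treated floxed libraries, against 52.7, 51.6 and 35.5 TPM in floxed controls (1.32 ± 0.21, 0.0204), and Lpcat3, which puts polyunsaturated chains into phospholipids, had 76.3, 81.7 and 105 TPM in treated floxed libraries, against 32.7, 37.5 and 42.5 TPM in floxed controls (1.15 ± 0.17, 0.0142). Both calls were lost in 3 of the 8 fits, among them those without floxed control 4 and without treated library 3 (up to 0.202 and 0.13). Cidec, which enlarges lipid droplets, had 7.98, 7.69 and 8.67 TPM in treated floxed libraries, against 0.48, 0.83 and 0.58 TPM in floxed controls (2.49 ± 0.20, 0.000762), on a lipid droplet list with 3 of 25 members higher (12%). Of 28 peroxins and peroxisome membrane proteins 3 rose (10.7%), among them Pex11a (1.10) and Pex19 (0.69). In 17 of the 28 the treated libraries stood above all controls, which held for 25.7% of all tested genes. Of 33 other peroxisomal enzymes 5 rose (15.2%), among them Acad11 (0.97), Mlycd (0.81) and Ephx2 (0.77). The calls of these peroxisomal genes were each lost in 3 to 6 of the 8 fits, always including those without floxed control 4 and without treated library 1 (adjusted p up to 0.374).

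Sterol and lipoprotein genes were called at shares above the 2.12% of all tested genes, on small counts. Of 27 genes of cholesterol synthesis and uptake 2 rose (7.41%, median 0.12). Of 34 apolipoprotein and lipoprotein genes 4 rose and Lpl fell (14.7%, median 0.12). Scarb1, the receptor for high-density lipoprotein, had 128, 134 and 137 TPM in treated floxed libraries, against 67.4, 70.0 and 62.3 TPM in floxed controls, and Mttp, which loads lipid onto apolipoprotein B, had 130.4, 134 and 153 TPM in treated floxed libraries, against 73.5, 77.0 and 84.0 TPM in floxed controls. The treated libraries stood above the controls in both genes. Apoc2, the activator of lipoprotein lipase, had 475, 539.9 and 554 TPM in treated floxed libraries, against 224, 239 and 286 TPM in floxed controls, and Lipg, endothelial lipase, had 10.3, 9.88 and 9.18 TPM in treated floxed libraries, against 3.95, 4.37 and 1.85 TPM in floxed controls. Log2 fold changes were 1.01 ± 0.12, 0.80 ± 0.12, 1.02 ± 0.14 and 1.49 ± 0.24 in this order (limma adjusted p = 0.00645, 0.0182, 0.0121 and 0.0204). These 4 calls were lost without floxed control 4, and in 2 to 4 of the 8 fits in all (adjusted p up to 0.164).

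Genes of mitochondrial and amino acid metabolism were higher by small amounts, and few passed the test. Of 73 nuclear genes of the respiratory chain, 0 were called by limma, 71 had a positive fold change, and 56 had all 3 treated floxed libraries above all 3 controls, against 25.7% of all tested genes. Their median was 0.28, and over the alternatives it lay between 0.12 and 0.34, with 0 to 28 members called. Atp5b, a subunit of ATP synthase, had 1047, 1079 and 927 TPM in treated floxed libraries, against 747, 783 and 817 TPM in floxed controls (0.36 ± 0.15, limma adjusted p = 0.293). Cox6b1, a subunit of cytochrome c oxidase and the member with the smallest adjusted p, had 576, 610.5 and 584 TPM in treated floxed libraries, against 406, 441 and 389.5 TPM in floxed controls (0.54 ± 0.13, 0.0927). The 15 genes encoded in mitochondria did not share this, with 6 positive and 9 negative fold changes (median -0.09), and neither did 74 cytosolic ribosome genes (median -0.01, 29 positive) or 36 proteasome genes (median 0.01, 19 positive), with 0 called in any of the 3 lists. Of 17 genes of the citrate cycle 16 were positive (median 0.41) and 1 rose, Mdh1, at 652, 649 and 615 TPM in treated floxed libraries, against 426, 406 and 434 TPM in floxed controls (0.59 ± 0.10, 0.0265, lost in 6 of the 8 fits, those without any 1 floxed sample or knockout control 2, up to 0.211).

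Of 60 genes of amino acid breakdown and the urea cycle 5 rose and Got1 fell (10% called, beside 2.12% of all tested genes), and 53 had a positive fold change (median 0.33). Aass, which starts lysine breakdown, had 504, 414 and 449 TPM in treated floxed libraries, against 88.2, 86.7 and 94.8 TPM in floxed controls (2.31 ± 0.16, limma adjusted p = 0.000332), and its call was kept in every fit. Hal and Uroc1, the opening enzymes of histidine breakdown, stood at 193, 208 and 204 TPM in treated floxed libraries, against 68.9, 71.4 and 114 TPM in floxed controls for Hal (1.16 ± 0.19, 0.0214) and at 173, 179 and 174 TPM in treated floxed libraries, against 79.5, 85.6 and 93.5 TPM in floxed controls for Uroc1 (0.99 ± 0.15, 0.0182). Aadat, which transaminates aminoadipate on the lysine and tryptophan routes, had 215, 201 and 178 TPM in treated floxed libraries, against 109, 109 and 94.7 TPM in floxed controls (0.95 ± 0.13, 0.00975). Treated libraries stood above controls in each. The calls of Hal, Uroc1 and Aadat were lost in 4 or 5 fits, among them those without floxed controls 1 and 3, treated library 1 or treated library 3 (up to 0.0932, 0.161 and 0.122). Suox, the sulphite oxidase that ends cysteine breakdown, had 208, 212 and 225 TPM in treated floxed libraries, against 65.1, 68.0 and 78.2 TPM in floxed controls (1.56 ± 0.14, 0.00124) and kept its call throughout, while Csad and Gclc, described above, fell. Of 40 glucose metabolism genes 0 were called by limma (median 0.36). Of the 40, 30 were positive, against 58.6% of all tested genes, and 25 had no overlap in the upward direction, against 25.7%.

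Enzymes of drug handling and cofactor supply outside the classic targets contributed single genes. Of 59 conjugation enzymes and hydrolases 3 rose and Ces1c fell (6.78% called, beside 2.12% of all tested genes, median 0.09). For the other lists of this paragraph the called share was 4.88% for P450s and monooxygenases and 5.26% for plasma membrane carriers. For cofactor genes it was 2.33%, near the share of all tested genes. Papss2, which makes the sulphate donor PAPS, had 107, 93.7 and 96.3 TPM in treated floxed libraries, against 42.3, 42.2 and 35.8 TPM in floxed controls (1.32 ± 0.19, limma adjusted p = 0.0142), and Gsta4, a glutathione transferase for lipid aldehydes, had 165, 168 and 139.8 TPM in treated floxed libraries, against 71.3, 79.8 and 90.4 TPM in floxed controls (0.92 ± 0.15, 0.0208). Of 41 other P450s and flavin monooxygenases 2 rose, both monooxygenases: Fmo5 had 1113, 1075 and 815 TPM in treated floxed libraries, against 497, 505 and 409 TPM in floxed controls (1.13 ± 0.20, 0.0303) and Fmo4 had 4.39, 5.22 and 4.26 TPM in treated floxed libraries, against 1.09, 1.78 and 1.40 TPM in floxed controls (1.21 ± 0.17, 0.0118). Pank1, the kinase that starts coenzyme A synthesis, was the 1 called gene of 43 on the list of NAD, coenzyme A and vitamin cofactors, at 99.3, 86.4 and 96.2 TPM in treated floxed libraries, against 36.9, 38.7 and 38.8 TPM in floxed controls (1.27 ± 0.15, 0.00537). Groups were separate in all 5 genes. Cbr1, a carbonyl reductase, had 157, 150.1 and 129 TPM in treated floxed libraries, against 57.3, 55.3 and 65.7 TPM in floxed controls (1.24 ± 0.16, 0.00975). Of 57 plasma membrane carriers Slc16a5 rose and Slc17a8 and Slc22a28 fell, with Slc17a8, of the vesicular glutamate transporter family, at 0.67, 0.3 and 0.91 TPM in treated floxed libraries, against 4.58, 4.23 and 4.61 TPM in floxed controls (-1.78 ± 0.29, 0.0233). Igfbp2, a secreted binding protein of insulin-like growth factors, rose at 489, 506 and 641 TPM in treated floxed libraries, against 212, 215 and 197 TPM in floxed controls (1.40 ± 0.28, 0.0456). Each of these calls except that of Slc16a5 was lost without floxed controls 1 and 3 and without floxed control 4, and in 2 to 6 fits in all (adjusted p up to 0.38, for Slc22a28).

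Some lists had medians below 0 with at most 1 member called, while 2.12% of all tested genes were called. Of 35 major urinary proteins and other sex-biased genes 27 had a negative fold change (median -0.25, between -0.38 and -0.22 over the alternatives), and the 1 called member, Acot3, rose. The sequences of the urinary protein genes are near-identical, so their values are uncertain one by one. Mup14, uncalled, had 11743, 10631 and 7407 TPM in treated floxed libraries, against 17156, 17653 and 14891 TPM in floxed controls (-0.72 ± 0.25, limma adjusted p = 0.218), while Mup20, also uncalled, lay in the other direction at 7076, 6037 and 4785 TPM in treated floxed libraries, against 3497, 3547 and 3946 TPM in floxed controls (0.66 ± 0.29, 0.327). Serpina1e, an α1-antitrypsin paralog and uncalled, had 3906, 4361 and 1460.4 TPM in treated floxed libraries, against 10033, 10092 and 14741 TPM in floxed controls (-2.06 ± 0.44, 0.0614). Of 66 acute phase, complement and coagulation genes 41 were negative (median -0.19, between -0.33 and -0.07), and the 1 called member, Il1rn, the antagonist of the interleukin-1 receptor, rose at 4.10, 4.51 and 6.50 TPM in treated floxed libraries, against 0.23, 0.46 and 0.71 TPM in floxed controls (1.97 ± 0.28, 0.0131, lost without either control sample or treated library 3, up to 0.119). Saa1, an acute phase protein, uncalled, had 192, 176 and 110.1 TPM in treated floxed libraries, against 269.6, 272 and 806 TPM in floxed controls, with control 4 far above controls 1 and 3. The metallothionein gene Mt1, also uncalled, had 99.0, 87.3 and 29.0 TPM in treated floxed libraries, against 349, 314 and 557 TPM in floxed controls (-2.75 ± 0.84, 0.166). Of 32 genes of protein folding and stress in the endoplasmic reticulum 25 were negative and 0 called by limma (median -0.20, between -0.34 and -0.09).

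Among the 18 tested clock genes 1 was called (5.56%, beside 2.12% of all tested genes). Treated floxed libraries stood above all controls in 8 and below in 4, which held for 25.7% and 9.59% of all tested genes. The called gene was Ciart, a repressor of the clock, at 17.4, 15.4 and 13.6 TPM in treated floxed libraries, against 2.80, 4.98 and 1.43 TPM in floxed controls (2.25 ± 0.35, limma adjusted p = 0.0182, lost without floxed control 4, treated library 1 or treated library 3, up to 0.149). Besides Dbp and Arntl, whose changes were 3.73 ± 1.15 and -2.19 ± 0.61, Per3, a period gene, had 3.40, 2.58 and 4.36 TPM in treated floxed libraries, against 0.42, 0.22 and 0.36 TPM in floxed controls (1.71 ± 0.37, 0.0636). Nfil3, a repressor that opposes Dbp, had 8.83, 8.69 and 3.89 TPM in treated floxed libraries, against 25.3, 26.4 and 32.9 TPM in floxed controls (-1.96 ± 0.55, 0.135). Dbp, Per3, Nr1d2, Tef, Per2, Usp2, Tspan4 and Ciart stood higher and Arntl, Nfil3, Cry1 and Clock lower in all 3 treated floxed libraries than in any control.

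**Figure D5:**
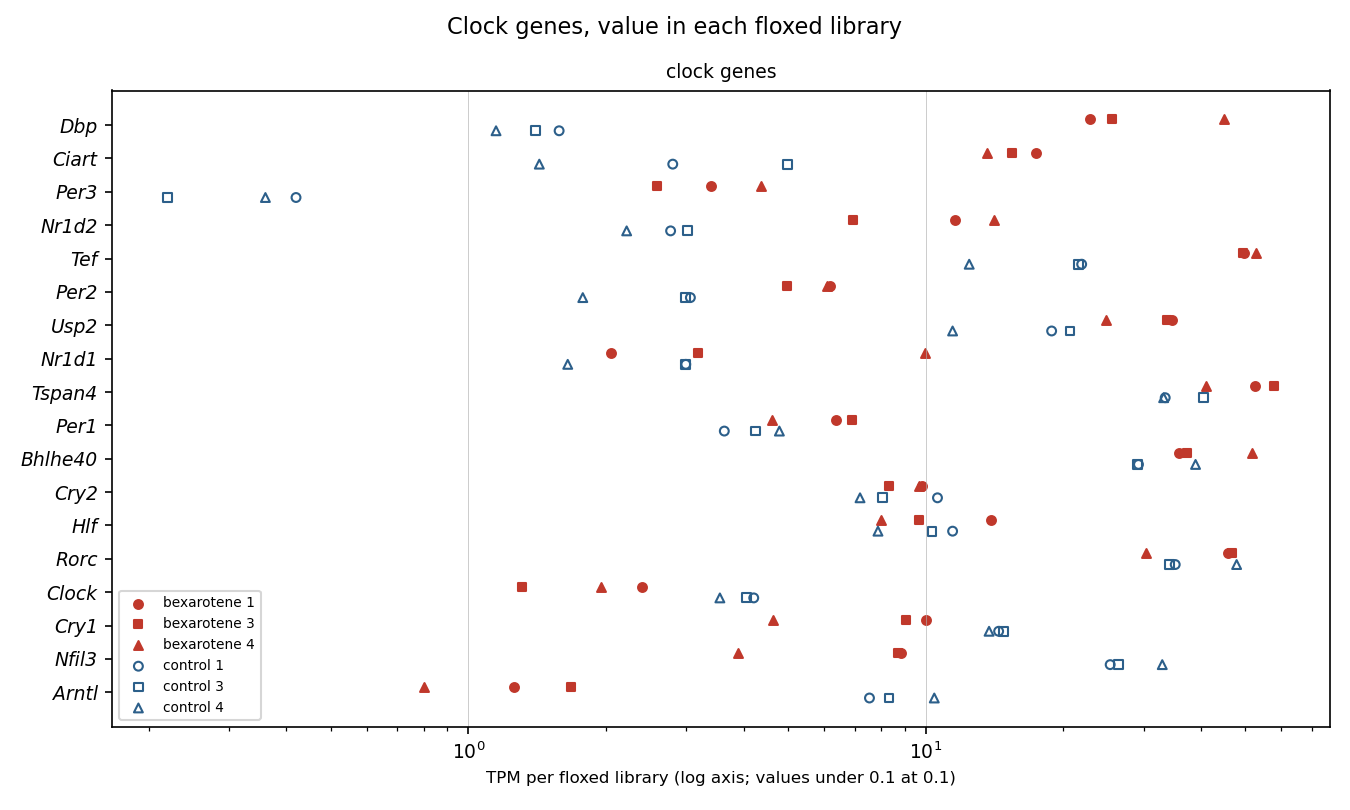
TPM on a log axis in each floxed library, filled red for bexarotene and open blue for control, of the 18 tested clock genes, ordered by log2 fold change. Dbp, at 22.9 to 45.0 TPM with bexarotene against 1.15 to 1.58 TPM in controls, and Arntl, at 0.8 to 1.68 against 7.54 to 10.5 TPM, mark the 2 ends.

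The bexarotene effects of floxed and knockout mice were compared by their difference. The treated knockout counted as 1 sample with no spread of its own, so these p-values rest on the spread within the other groups. The difference, floxed minus knockout, was called for 22 of 11018 genes (0.2%), 11 positive and 11 negative. Of the 22, 11 were among the 234. Ccnd1 had 2.05, 2.02 and 2.06 TPM in treated knockout libraries and 0.7, 0.92 and 0.49 TPM in knockout controls, so that its effect was 3.95 ± 0.18 in floxed and 0.85 ± 0.22 in knockout mice (difference 3.10 ± 0.28, limma adjusted p = 0.00846). Ehhadh had 365, 362 and 367 TPM in treated knockout libraries and 92.4, 98.8 and 89.9 TPM in knockout controls (difference 2.25 ± 0.18, 0.00508), and its effect was called in both genotypes. Cyp26a1, by contrast, had 330.0, 322 and 324 TPM in treated knockout libraries and 5.82, 9.99 and 17.3 TPM in knockout controls, and its difference of 0.19 ± 0.68 did not pass (adjusted p = 0.956). Thrsp had 347, 331 and 347 TPM in treated knockout libraries and 13.9, 14.96 and 16.6 TPM in knockout controls, which makes its difference negative (-2.65 ± 0.18, 0.0019). Of the 203 genes that rose in floxed mice 167 had a positive fold change in the knockout (median 0.38, against 0.10 over all tested genes), and of the 31 that fell 20 had a negative one (median -0.13). In the knockout 57 genes were called, of which 20 were among the 234.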

How the data were processed

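RNA of hepatocytes from 4 groups of 3 libraries was sequenced. Per the labels' protocols, TRIzol extraction and DNase I treatment were followed by library preparation from 1 µg of total RNA with a stranded mRNA kit of Illumina. Per the submitters' processing notes the tools were fastp, HISAT2 and StringTie, with no versions stated, and for the genome build and the strand setting: not given in the sources used here. TPM values came in 1 table that the authors deposited, with 26748 Ensembl identifiers, of which 21810 were matched to a symbol. Library numbers in the column names differ from those in the titles, and each column was therefore assigned to a group and not to a sample.

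Libraries of a group whose log2 difference beyond counting noise had an SD under 0.1, over genes of at least 10 TPM in 20 expression classes, were averaged into 1 sample, which left 9 samples. For log2(TPM + 1), limma 3.58.1 (R 4.3.3) fitted a linear model with 4 groups (eBayes with a trend, 5 residual and 3.22 prior degrees of freedom) for genes reaching 1 TPM in 3 or more libraries, with Benjamini-Hochberg adjustment over 11018 genes. The added 1 makes fold changes of genes with low TPM too small. The fit was tested on simulated data. Marker levels were compared by exact permutation over the 6 floxed libraries. Promoters came from RefSeq on GRCm38.p6, matched by symbol for 7973 tested genes.

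The members of 59 gene lists (10 of receptor targets and related genes, 38 of pathways, 11 of cell markers, 1849 genes, 1819 in the table) and the rules were chosen with earlier results of these data known, so counts over lists are descriptions. Named genes are the RXR genes, the 15 largest called rises and falls with at least 5 TPM in the higher group and no overlap between the floxed groups, the same among genes on no list, the 10 largest gains and losses in TPM, up to 4 called members per list or else its 2 most abundant, and the 6 called genes with the largest called difference between genotypes. Not all are printed. Genes outside this rule (Dbp, Arntl, Per3, Nfil3, Cdk1, Cox6b1, Mup14, Mup20, Serpina1e, Saa1, Mt1, Tmem120a, Igkv12-98, those of runs and those kept in all leave-one-out fits) were named after their values were seen. Alternatives covered 12 separate libraries, the floxed groups alone, the pseudocount, the filter, normalization, a GC and length correction (GENCODE M21, values for 95.2% of tested genes), the replicate block, the trend, and leaving out each sample.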

Additional observations from a re-analysis of the deposited data

Results flagged for a closer look

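Of the 22 genes whose bexarotene effect differed between floxed and knockout mice by a test of the difference itself, 12 named ones are given here (limma with Benjamini-Hochberg adjustment over all tested genes, with the treated knockout as 1 sample assumed to vary like the other groups). Differences are the floxed minus the knockout effect on the log2 scale. Of the 22, 11 were positive and 11 negative, a balance that the 12 given here do not show. Ccnd1 (3.10 ± 0.28, adjusted p = 0.00846), Slc16a5 (2.55 ± 0.30, 0.0227), Cidec (2.48 ± 0.32, 0.0368), Pla2g6 (2.37 ± 0.32, 0.0416) and Alpl (2.32 ± 0.32, 0.0453) had a larger effect in floxed mice. So did Ehhadh (2.25 ± 0.18, 0.00508), Gpat3 (1.96 ± 0.24, 0.0241), Aass (1.76 ± 0.25, 0.0492) and Acsl1 (1.68 ± 0.20, 0.0227). Slc16a5, the monocarboxylate carrier, had 10.4, 10.5 and 11.9 TPM in treated knockout libraries 1, 2 and 3 and 7.67, 8.60 and 10.7 TPM in knockout controls 1, 2 and 5. Alpl, the alkaline phosphatase, had 21.8, 19.7 and 21.0 TPM in treated knockout libraries and 24.6, 20.5 and 14.4 TPM in knockout controls. Aass, of lysine breakdown, had 195, 195 and 194 TPM in treated knockout libraries and 111, 140.5 and 149 TPM in knockout controls, so it stood higher under the drug there too.

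Maats1os had a fitted difference of 2.94 ± 0.32 (0.0186), which depends on the pseudocount because it was listed at 0 in floxed controls. It was at 0, 0.8 and 0.71 TPM in treated knockout libraries and 0, 0 and 0 TPM in knockout controls. Thrsp (-2.65 ± 0.18, 0.0019) and Lpin1 (-2.63 ± 0.30, 0.0223) differed in the other direction. Lpin1, a phosphatidate phosphatase and coactivator, was not called in floxed mice, at 34.8, 29.97 and 25.8 TPM in treated floxed libraries, against 45.4, 45.7 and 60.0 TPM in floxed controls (-0.78 ± 0.19, 0.0845), and had 263, 262 and 265 TPM in treated knockout libraries and 67.5, 66.1 and 85.6 TPM in knockout controls. Leaving out 1 sample at a time, between 6 and 210 genes were called for the difference. No outlier test applied, since every group has 3 libraries.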

How the results depend on the processing

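Over the alternatives run, none of the 158 named genes reversed: of their values 2496 kept their side of the threshold, 448 lost their call and 46 gained one. Counts of calls moved more. As 12 separate libraries, 1062 genes were called for bexarotene in floxed mice, 334 list members and 651 for the difference between genotypes (234, 100 and 22 in the report), with 233 of the 234 genes shared. The 2 floxed groups alone gave 614 genes and 216 list members, and no filter on low values 140, 55 and 689. Removing the GC and length trend gave 288 higher and 48 lower and 37 for the difference. Quantile normalization gave 162 higher and 49 lower (76.8% higher in place of 86.8%). The 6 floxed libraries gave 1242 genes and 419 list members with the replicate block and 1474 and 438 without it (the fit without it was chosen after seeing the data). The block took floxed controls 1 and 3 as separate samples. Deviations of same-numbered libraries correlated at 0.0361, 0.00529 and 0.143, not all above 0.1, and treated library 1 correlated best with control 3, so the numbers were not taken as pairs. Leaving out 1 sample at a time gave 43 (without floxed control 4) to 553 (without knockout control 5) genes, 30 to 205 list members and 6 to 210 for the difference. Without floxed controls 1 and 3 the counts were 65, 45 and 13, without treated floxed library 1 they were 74, 43 and 6, and without treated floxed library 3 they were 77, 43 and 7. The cause of these shifts was not tested.

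Marker levels (bexarotene minus control, mean log2(TPM + 1)) over tested members only were 0.44 for cholangiocytes (2 genes) and -1.14 for neutrophils (4 genes). They were -0.58 for acinar cells and -1.20 for adipocytes and muscle, each the value of 1 gene and not of a cell type. The other 11 of 12 acinar and 6 of 7 adipocyte and muscle members were under 1 TPM in every floxed library. Leaving out 1 floxed sample at a time gave -1.08 to 0.07 for macrophages, -0.43 to -0.032 for endothelium, -0.13 to 0.058 for stellate cells, -0.012 to 0.063 for cholangiocytes, -1.16 to -0.36 for neutrophils, -0.66 to 0.55 for erythroid cells and -0.026 to 0.0024 for mesothelium. TPM keeps no depth, so the precision of genes near 1 TPM cannot be stated, and with 2 control samples each carries much of the spread.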

Other observations

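Called genes outside both the lists and the naming rule, chosen here after their values were seen, included enzymes and signalling genes of several kinds. Gch1, the first enzyme of tetrahydrobiopterin synthesis, had 113, 111 and 97.7 TPM in treated floxed libraries, against 39.8, 39.8 and 30.5 TPM in floxed controls (1.59 ± 0.14, limma adjusted p = 0.00124, kept in all 8 fits that left out a sample). Srd5a1, the steroid 5α-reductase, had 168, 168 and 159 TPM in treated floxed libraries, against 58.6, 62.7 and 54.6 TPM in floxed controls (1.5 ± 0.21, 0.012). Both stood higher in every treated floxed library than in any floxed control. Nrg4, a secreted ligand of the ErbB receptors, had 11.1, 10.4 and 7.48 TPM in treated floxed libraries, against 3.47, 3.23 and 2.81 TPM in floxed controls (1.37 ± 0.24, 0.0277), and Tgfbr2, a receptor for TGFβ, had 5.66, 5.83 and 6.27 TPM in treated floxed libraries, against 1.82, 1.33 and 1.46 TPM in floxed controls (1.46 ± 0.18, 0.00681). Smad9, a transducer of BMP signals, had 3.28, 2.90 and 2.80 TPM in treated floxed libraries, against 1, 1.03 and 0.51 TPM in floxed controls (1.19 ± 0.18, 0.0178), and Spry4, a feedback inhibitor of receptor tyrosine kinases, had 2.98, 2.26 and 3.41 TPM in treated floxed libraries, against 0.53, 0.55 and 0.83 TPM in floxed controls (1.20 ± 0.19, 0.0185). Ube2c, a ubiquitin carrier of mitotic exit, had 6.14, 5.19 and 3.04 TPM in treated floxed libraries, against 0.57, 0.7 and 1.22 TPM in floxed controls (1.56 ± 0.26, 0.0244), with the lowest treated and the highest control value both in library 4. Other than Gch1, these calls were lost in some of those fits, with adjusted p up to 0.135 for Srd5a1, 0.269 for Nrg4, 0.089 for Tgfbr2, 0.17 for Smad9, 0.16 for Spry4 and 0.199 for Ube2c.

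Alb and 2 other abundant secreted proteins, Apoa1 and Trf, chosen after their values were seen, stood lower in every treated floxed library without a call. Alb, serum albumin, had 33166, 34773 and 35364 TPM in treated floxed libraries, against 38361, 39187 and 46053 TPM in floxed controls (-0.30 ± 0.13, limma adjusted p = 0.324), Apoa1, the main protein of high-density lipoprotein, had 5069, 5847 and 6595 TPM in treated floxed libraries, against 7552, 7840.0 and 7646 TPM in floxed controls (-0.40 ± 0.18, 0.329), and Trf, transferrin, had 11309.7, 12306 and 11429 TPM in treated floxed libraries, against 12926, 13822 and 16749 TPM in floxed controls (-0.36 ± 0.16, 0.329). Fasn and Srebf1 were highest in library 4 of both floxed groups, and so was the haemoglobin gene Hbb-bs, which had 57.1, 84.09 and 208 TPM in treated floxed libraries, against 52.95, 54.9 and 231 TPM in floxed controls. Whether library 4 of each group shares a source is not stated in the labels.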
